A study of Mus musculus with 22 samples.

Results

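Tbx3, Gbx2, Prdm14, Tfap2c, Nr0b1, Sall4, Zfp57 and Fbxo15 are known regulators or markers of naive mouse pluripotency outside the marker genes on which the study centres. They were chosen by symbol, each symbol matches 1 gene, and they are 8 of the 34489 genes in the count table. The study asks whether activators of the energy sensor AMPK return primed mouse epiblast stem cells (mEpiSCs) to a naive state. It holds 22 bulk RNA-seq libraries, 1 for each condition. The primed lines are Oct4GIP (129/Ola, XX, carrying an eGFP and puromycin transgene under the Oct4 promoter) and 129/MSM (XY, from MSM/Ms and 129X1/SvJ), each grown in FGF2 and Activin A and sequenced in 1 library. By the study's methods Oct4GIP was kept on fibronectin, and 129/MSM on fibroblast feeders in another medium, with serum replacement. The naive reference is 1 library of Rex1-GFP mESCs (129/Ola, XX) in 2iL, which joins inhibitors of MEK and GSK3 with LIF. Whole Oct4GIP cultures on fibroblast feeders were grown in Basal medium, in 2iL, or with AICAR, alone or joined by LIF, and sequenced at day 8 and day 16 (8 libraries, feeder reads included). Cultures of day 16 were then expanded in 2iL without sorting. Oct4GIP cells from AICAR, with or without LIF, were sequenced at passages 2 and 3 (4 libraries). At passage 10 there are 7 libraries: for Oct4GIP, metformin+LIF and both AICAR and A769662 with and without LIF; for 129/MSM, AICAR with and without LIF.

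Naive pluripotency is the state of the preimplantation epiblast and is held in culture by 2iL, while primed cells resemble the epiblast after implantation and depend on FGF and Activin. The naive state rests on a network of transcription factors in which these genes take different places: Tbx3 and Gbx2 respond to LIF, Prdm14 represses FGF receptor and DNA methyltransferase genes, Tfap2c binds naive enhancers, and Nr0b1 encodes an orphan nuclear receptor that binds other factors of the network. Sall4 is shared by naive and primed cells, Zfp57 protects methylation at imprinted regions, and Fbxo15 encodes an F-box protein whose promoter is a long-used reporter of reprogramming.

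The label was checked against the naive and primed libraries. All 8 genes were higher in naive mESCs than in primed Oct4GIP cells, and 7 of 8 were also higher than in primed 129/MSM cells. The exception is Sall4, at 193 counts per 1000000 counts (CPM) in naive mESCs and 385 in primed 129/MSM cells. The summed level of 7 naive markers was 4096 CPM in naive mESCs, 2603 to 4633 in the 11 expanded libraries, and 260.4 and 88.1 in the primed libraries. Library totals run from 438771 counts (AICAR+LIF at day 8) to 5290163 (Basal at day 16), with a median of 2848382. At these depths 3 counts equal 0.565 to 5.93 CPM. In bulk libraries, fewer cells of a type and less RNA per cell cannot be told apart.

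Across expansion to passage 10, 7 of the 8 genes rose against the 2 primed libraries and Sall4 did not pass the test. In the same edgeR fit 36.6 percent of all 18739 genes tested were called, 16.7 percent as higher and 19.9 percent as lower. The members' median log2 fold change was 5.55, beside -0.01 for all genes tested. All 8 members passed the filter on low counts. The primed group holds 1 library of each line, so every fold against it rests on those 2. Without primed Oct4GIP, 4462 genes were called in place of 6863.

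**Figure D1:**
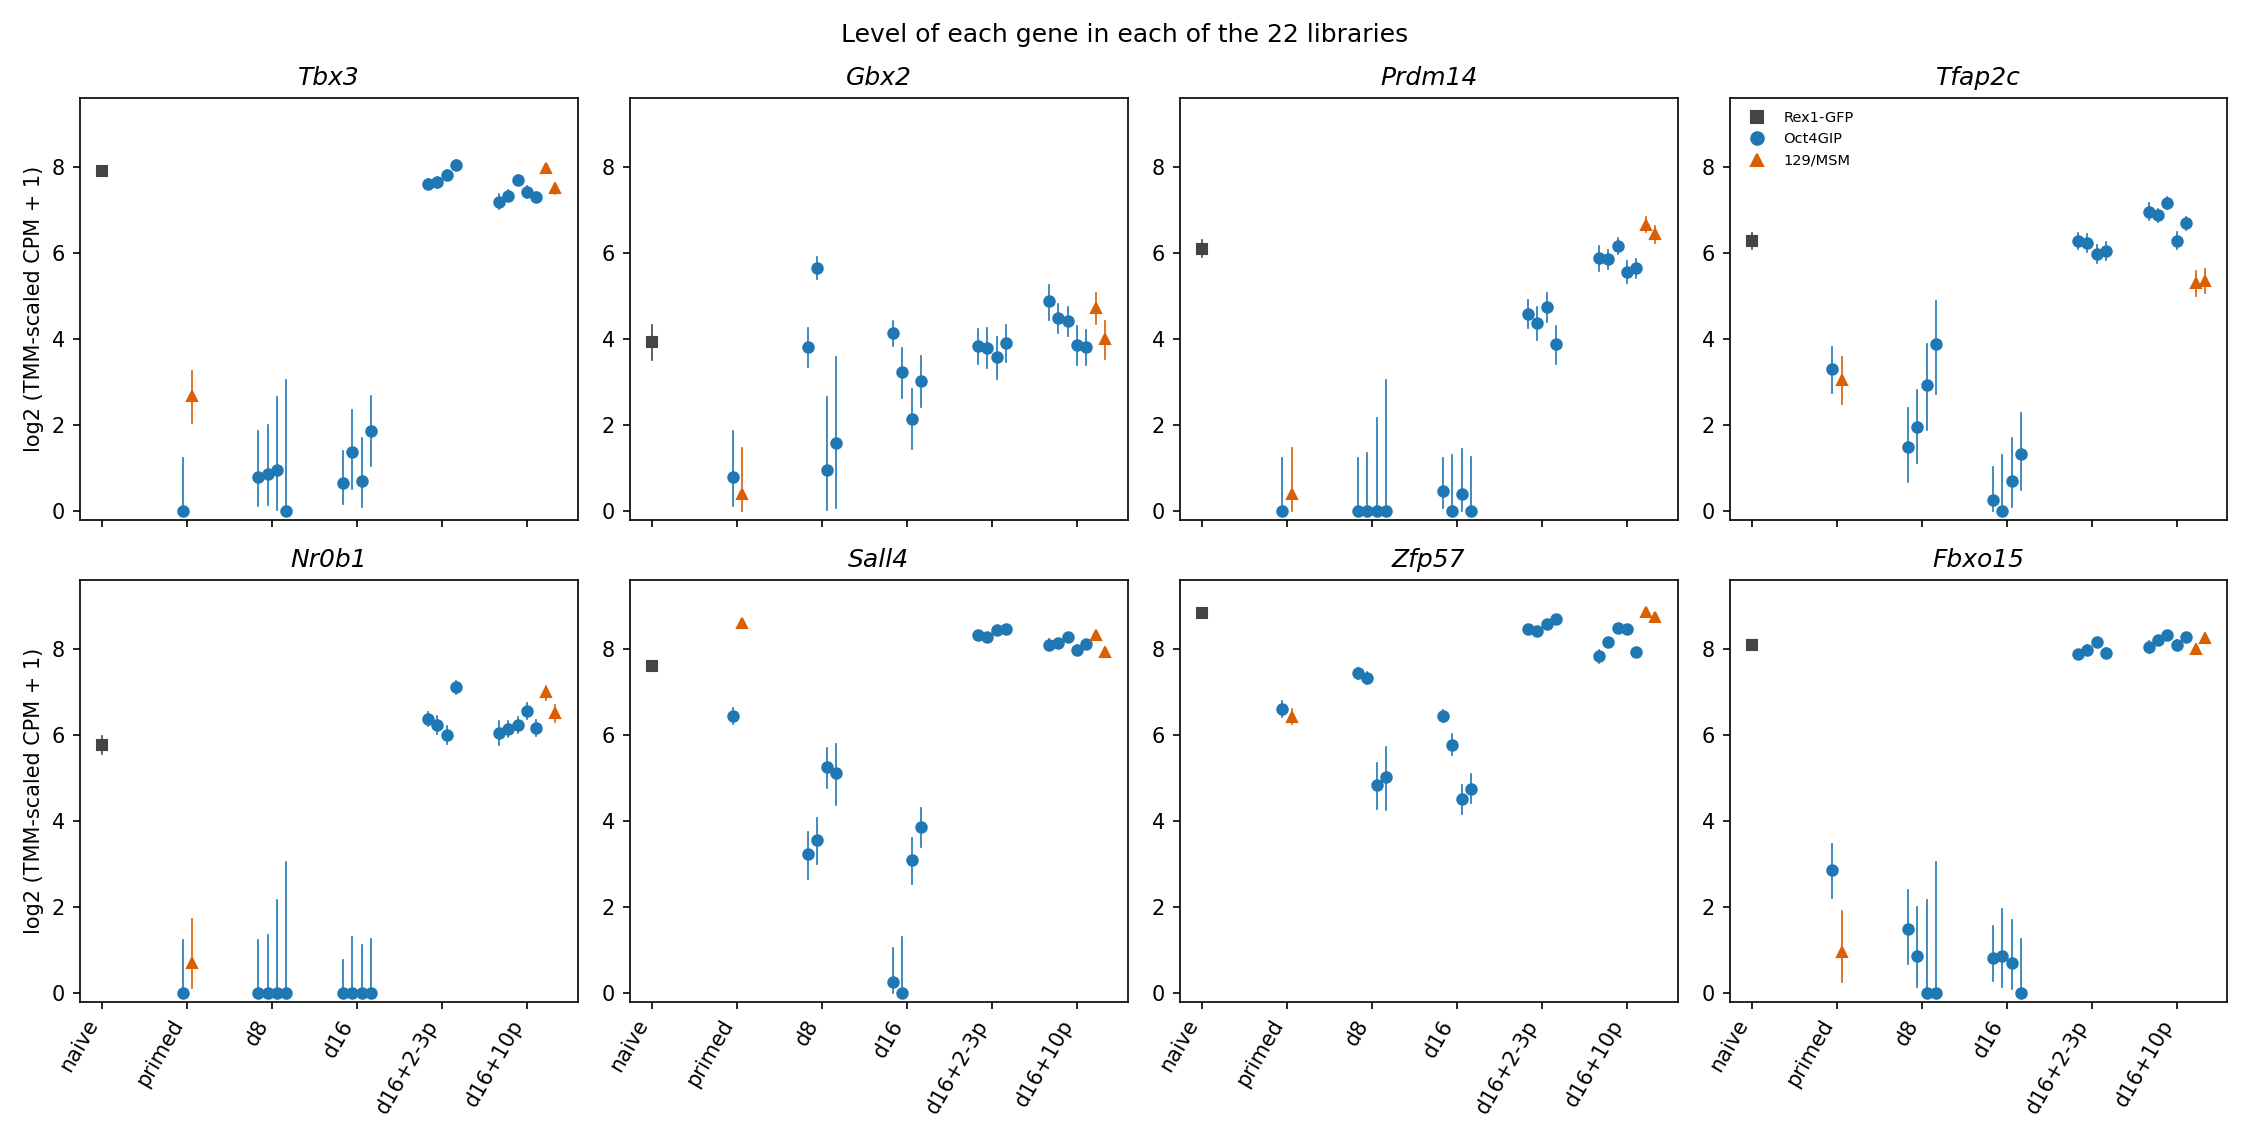
Levels of the 8 genes in each of the 22 libraries, as log2(CPM + 1) by group, with exact 95% counting intervals as bars and the line shown by marker and colour; cultures stand in the order Basal, 2iL, AICAR, AICAR+LIF. All but Sall4 are higher at passage 10 than in both primed libraries, and Prdm14 is higher at passage 10 (46.4 to 100.1 CPM) than at passages 2 and 3 (13.7 to 25.8 CPM).

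Tbx3, a T-box factor that sustains self-renewal, had 0 counts in primed Oct4GIP cells and 17 (5.37 CPM) in primed 129/MSM cells. At passage 10 it had 145 to 248 CPM, with a median of 170.4, and in naive mESCs 237. The groups do not overlap, and every expanded library lay above both primed ones. The log2 fold change was 5.98 (SE 0.55, adjusted p = 6.97e-08). In Oct4GIP alone, against a floor of 3 counts over the primed library, Tbx3 was at least 154-fold higher, and in 129/MSM the ratio of counts was 39.7 (95% counting interval 24.7 to 68.5). Without primed Oct4GIP the log2 fold change was 5.06, and without primed 129/MSM the bound for Oct4GIP is what the counts give.

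Gbx2, a homeobox factor that acts downstream of LIF, was the least abundant member per length, at 8.98 CPM per kilobase on average at passage 10. It had 2 counts in primed Oct4GIP and 1 in primed 129/MSM, beside 13.1 to 28.3 CPM (median 20.3) at passage 10 and 14.3 CPM in naive mESCs. The ratio of counts over primed was 37.1 (12.6 to 181), and the log2 fold change 5.13 (SE 1.12, adjusted p = 0.00117; 5.75 without primed Oct4GIP). Gbx2 was close to the floor in primed cells and low but present in expanded and naive cells.

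Prdm14, a PR-domain repressor of FGF signalling, had 0 counts in primed Oct4GIP and 1 in primed 129/MSM. It reached 46.4 to 100.1 CPM (median 57.7) at passage 10 and 67.6 CPM in naive mESCs. The ratio of counts was 388 with a counting interval of 69.5 to 15325, and the log2 fold change 8.28 (SE 0.68, adjusted p = 6.71e-08). With 1 count in the primed group, the size of the rise is known mainly from below. Without primed Oct4GIP the log2 fold change was 7.52, and for Oct4GIP alone the rise was at least 51.1-fold over the floor.

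Tfap2c, an AP-2 factor that works with Prdm14 in primordial germ cells, was measurable in both primed libraries, at 8.83 CPM (24 counts) in Oct4GIP and 7.26 CPM (23 counts) in 129/MSM. At passage 10 it had 38.4 to 142 CPM, with a median of 102. All expanded libraries lay above both primed ones. The ratio of counts was 11.7 (8.74 to 15.9), and the log2 fold change 3.50 (SE 0.59, adjusted p = 9.22e-05). By line the ratio was 12.7 (8.53 to 19.9) in Oct4GIP and 5.40 (3.49 to 8.71) in 129/MSM.

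Nr0b1 (Dax1), on chromosome X, had 0 counts in primed Oct4GIP and 2 in primed 129/MSM. At passage 10 it had 65.3 to 126 CPM (median 74.3), and in naive mESCs 53.7 CPM. The ratio of counts was 245 (67.8 to 2027), the log2 fold change 7.77 (SE 0.64, adjusted p = 3.26e-07; 6.95 without primed Oct4GIP), and in Oct4GIP alone the rise was at least 67.9-fold over the floor. Nr0b1 and Gbx2 rose together on expansion but differ in the cultures described further on, so their promoters are shown. Of the 8 genes, Gbx2, Nr0b1 and Zfp57 are in the RefSeq promoter table (GRCm38.p6). The 250 bases before the start are given 5′ to 3′ on the gene's strand for Gbx2 at chr1:89931177-89931426 (minus strand) and for Nr0b1 at chrX:86191525-86191774 (plus strand). Capitals mark motifs found.
Gbx2: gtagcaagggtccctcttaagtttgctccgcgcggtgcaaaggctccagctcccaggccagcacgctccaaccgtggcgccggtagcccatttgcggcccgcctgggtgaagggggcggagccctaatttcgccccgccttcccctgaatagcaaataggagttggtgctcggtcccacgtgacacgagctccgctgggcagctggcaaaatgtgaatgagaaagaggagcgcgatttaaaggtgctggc
Nr0b1: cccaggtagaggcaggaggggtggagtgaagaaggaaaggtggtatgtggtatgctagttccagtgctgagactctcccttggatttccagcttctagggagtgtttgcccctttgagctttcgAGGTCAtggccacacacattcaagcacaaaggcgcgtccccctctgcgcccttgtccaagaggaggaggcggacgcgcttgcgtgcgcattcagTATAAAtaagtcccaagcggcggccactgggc
The motifs searched on both strands were an octamer (ATTTGCAT), a nuclear receptor motif (AGGTCA), an AP-2 motif (GCCNNNGGC) and a TATA box (TATAAA). Among 32851 promoters of the same length they occur in 1.6, 14.0, 13.7 and 12.4 percent. The Nr0b1 window holds AGGTCA 126 bases and TATAAA 32 bases before the start, and the Gbx2 window holds none of the 4. Zfp57, whose bases are not printed, has 3 windows: 1 holds TATAAA on the opposite strand 189 bases before its start, 1 holds AGGTCA 138 bases before its start, and 1 holds none. A match is a description of letters, not a bound site.

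Since Nr0b1 is X-linked and both Oct4GIP and Rex1-GFP are XX, the state of chromosome X was measured beside it. The median log2 level of 343 X-linked genes, relative to the other chromosomes, lay between -0.08 and 0.07 in the naive and the 11 expanded libraries, and at 0.20 in primed Oct4GIP and 0.12 in primed 129/MSM. Xist, the RNA that coats an inactive X, had 603 CPM in primed Oct4GIP, 20.5 in primed 129/MSM, 2.54 to 14.5 at passages 2 and 3, and 0.308 to 1.77 (1 to 4 counts) at passage 10. Xist and Nr0b1 therefore move in opposite directions between primed Oct4GIP and expanded cells. In 129/MSM, which is XY, Nr0b1 rose as well, from 2 counts to 126 (AICAR) and 89.4 CPM (AICAR+LIF) at passage 10. The ratio of counts there was 170 (46.8 to 1405). Primed 129/MSM was kept on fibroblast feeders, and their part in its Xist level was not tested. The part of X reactivation in the level of Nr0b1 was not tested either.

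Sall4, a zinc-finger factor of the NuRD-binding Sall family, was the member whose level did not separate the states. It had 85.7 CPM in primed Oct4GIP, 385 in primed 129/MSM, 242 to 318 (median 276) at passage 10 and 193 in naive mESCs. The passage-10 libraries fall between the 2 primed ones. The log2 fold change was 0.24 (95% interval -1.06 to 1.54, adjusted p = 0.803), -0.47 without primed Oct4GIP and 1.69 without primed 129/MSM. By counts, the passage-10 level over primed was 3.26 (2.86 to 3.74) in Oct4GIP and 0.726 (0.672 to 0.784) in 129/MSM. A test of that difference between lines was added after the values were seen and takes the spread of the single primed library of each line from the other groups. It did not pass (log2 -2.15, SE 1.16, adjusted p = 0.407).

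Zfp57, which recruits Trim28 to imprinted regions, was measurable in every library. The 8 whole cultures, with 21.85 to 171 CPM of Zfp57, overlap the primed libraries. It had 96.4 CPM in primed Oct4GIP, 84.6 in primed 129/MSM, 226 to 463 (median 349) at passage 10 and 455 in naive mESCs, with no overlap between primed and expanded. The log2 fold change was 1.89 (SE 0.57, adjusted p = 0.0132), a ratio of counts of 3.72 (3.41 to 4.07). The call was lost when either primed library was left out, at 1.98 without Oct4GIP and 1.79 without 129/MSM, and with Oct4GIP libraries alone (1.60). Over its alternatives the adjusted p ran from 0.000556 to 0.14.

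Fbxo15 had 6.25 CPM (17 counts) in primed Oct4GIP, 0.947 (3 counts) in primed 129/MSM, 253 to 317 CPM (median 295) at passage 10 and 271 in naive mESCs. Its spread at passage 10 was small beside its mean (SD 24.5 on 288 CPM). The ratio of counts was 85.7 (55.4 to 140.3), and the log2 fold change 6.35 (SE 0.46, adjusted p = 2.25e-09). By line the ratio was 47.2 (29.5 to 81.2) in Oct4GIP and 295 (101 to 1431) in 129/MSM, and the log2 fold change was 8.18 without primed Oct4GIP and 5.51 without primed 129/MSM. Per length, Zfp57 (88.6) and Fbxo15 (85.6 CPM per kilobase) were the highest members at passage 10, followed by Sall4 (50.3) and Nr0b1 (46.5), then Tbx3 (27.3), Prdm14 (26.0) and Tfap2c (24.8), with Gbx2 last. Neighbours within each of those groups differ by less than their spread over the 7 libraries.

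**Figure D2:**
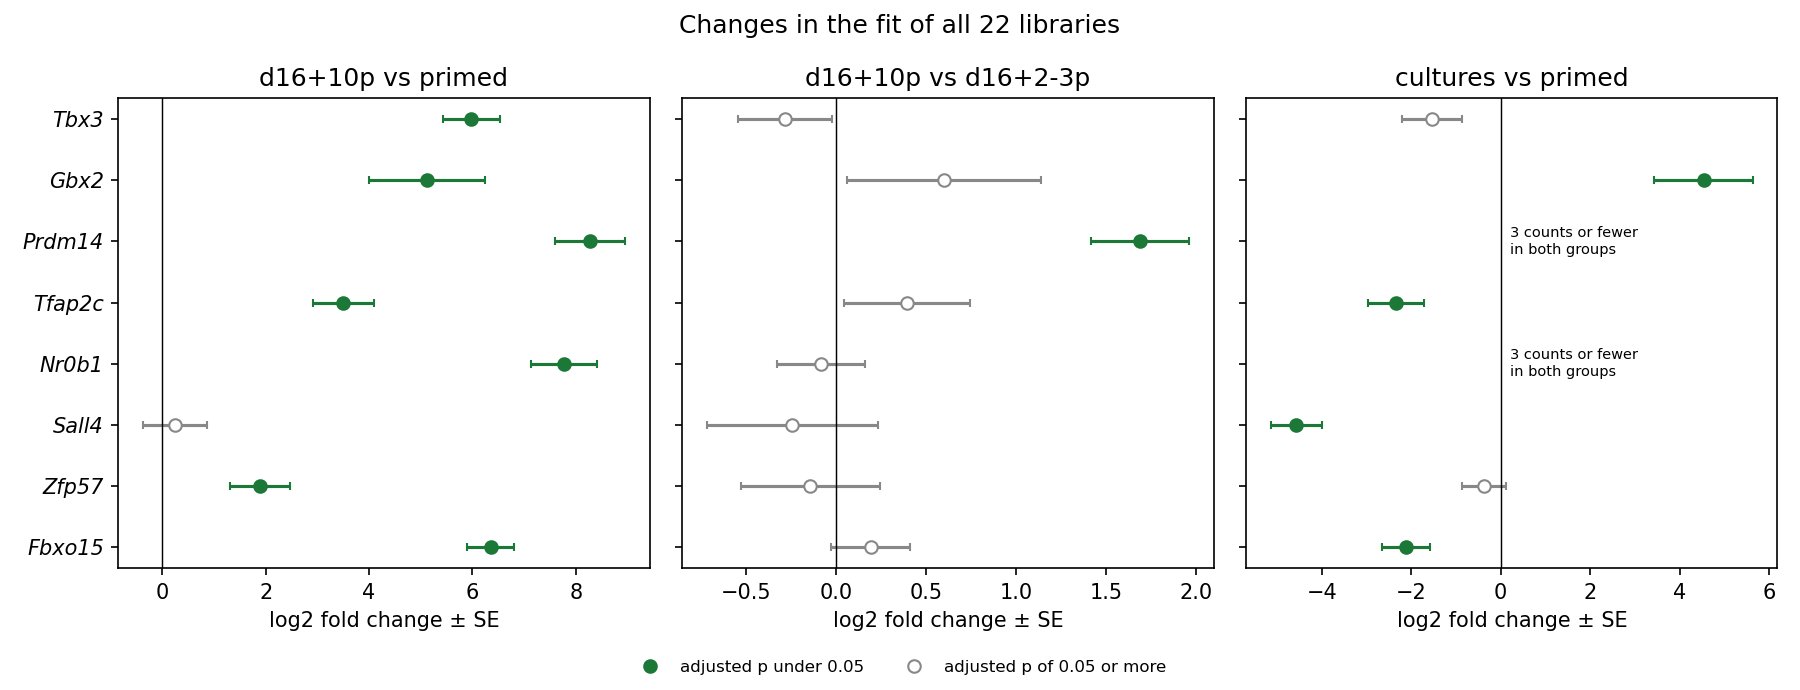
Log2 fold changes with SE for the 8 genes in 3 comparisons of the edgeR fit over 22 libraries; filled points have an adjusted p under 0.05, and Prdm14 and Nr0b1, at 3 counts or fewer in both groups, have no point in cultures against primed. Of the 8 genes, 7 rose at passage 10 against primed, Prdm14 alone rose between passages 2 or 3 and passage 10 (1.69), and in the cultures Gbx2 rose (4.54) while Sall4, Tfap2c and Fbxo15 fell.

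Other genes of the network moved with them. Of the other naive network genes, 16 of 16 rose at passage 10 against primed, 14 without primed Oct4GIP and 15 without any other single library (median 6.34, also with 3 genes at 0 in both primed libraries set to their bound), among them Tfcp2l1 (6.49), Nanog (2.21, adjusted p = 0.0485) and Esrrb (9.12). Zfp42 had 1 count in each primed library, and its ratio of counts was 1354 (375 to 11179.7). Of genes shared by naive and primed pluripotency, Sox2 (2.43) and Trim71 (0.96) rose, Lin28a (-2.14) and Utf1 (-2.83) fell, and Pou5f1 (0.39, adjusted p = 0.699), Tdgf1 (-0.33) and L1td1 (0.30) did not pass. Without primed Oct4GIP 1 of these shared genes was called as higher in place of 2. Of 12 formative and primed genes 9 fell and 0 rose (median -1.99), among them the DNA methyltransferases Dnmt3b (-2.17) and Dnmt3a (-1.22), with Cdh2 (-1.81) and Zic2 (-1.28). Without primed 129/MSM, 5 were called as lower in place of 9. The 10 feeder markers fell too, from sums of 61.8 CPM in primed Oct4GIP and 592 in primed 129/MSM to 6.49 to 19.2 at passage 10, and 2 of the 10 were called without primed 129/MSM.

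Known partners of the members rose in part. Of 16 partner genes tested, 8 rose and 1 (Mta1, -0.86) fell, with a median of 0.47. The Zfp57 cofactor Trim28 (1.48), the Prdm14-linked Polycomb gene Suz12 (1.57), the NuRD gene Rbbp4 (0.56) and the Nr0b1-binding Esrrb were among the 8. The members' own relatives were mixed: Sall3 (4.97) and Tfap2a (2 counts in primed, ratio of counts 18.4, 4.98 to 154) rose, Sall2 (-3.53), Tbx1 (-3.86), Tbx6 (-2.45) and Tbx20 (-4.02) fell, and Sall1 (0.55) and Prdm4 (0.35) did not pass. Among 8 primordial germ cell genes 6 rose, Tfap2c and Prdm14 included, with Kit (1.90). The other 3 had 0 counts in both primed libraries, and over a floor of 3 counts Dazl was at least 277-fold, Dppa3 at least 170.4-fold and Nanos3 at least 8.14-fold higher. That list's median of 4.99 is 3.26 with these 3 genes set to their bound.

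The naive library lay inside the range of the 7 passage-10 libraries for 6 of the 8 genes. Nr0b1 (53.7 against a lowest value of 65.3 CPM) and Sall4 (193 against 242) were below it, on library totals as well as on TMM-scaled values. By the same count, 8430 of 11729 genes with a mean of at least 10 CPM (71.9 percent) were inside the range, and 10 of the 16 other naive network genes, with 4 above and 2 below. With 1 naive library of another line, no test was made.

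The 4 libraries at passages 2 and 3 are all Oct4GIP, while 2 of the 7 at passage 10 are 129/MSM, so passage and line are mixed. Between early and late expansion Prdm14 was the 1 member of 8 that passed the test. It had 23.1 and 19.8 CPM at passage 2 (AICAR, AICAR+LIF), 25.8 and 13.7 at passage 3, and 46.4 to 100.1 at passage 10, so the groups do not overlap. The log2 fold change was 1.69 (SE 0.27, adjusted p = 0.00101), with adjusted p between 3.27e-07 and 0.00707 over its alternatives. In this comparison 9.35 percent of genes were called, 4.75 percent as higher and 4.61 percent as lower, so 1 member of 8 is near the background. The other 7 members lay between -0.28 (Tbx3) and 0.60 (Gbx2), with adjusted p from 0.565 to 0.894. Nr0b1, at -0.08, was at 0.20 without AICAR+LIF at passage 3. In Oct4GIP alone, Prdm14 had 46.4 to 70.9 CPM at passage 10. Tfap2c had 76.9 to 142 CPM there, above its 62.1 to 76.6 at passages 2 and 3, while 129/MSM had 38.4 and 40.0. Zfp57 averaged 371 CPM at passages 2 and 3, and at passage 10 it averaged 292 in Oct4GIP and 444 in 129/MSM.

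The early and late levels of Tbx3, Nr0b1, Zfp57 and Fbxo15 overlapped. Tbx3 averaged 220.2 CPM (SD 31.8) early and 181 (SD 35.6) late, and Fbxo15 252 (SD 23.2) and 288 (SD 24.5). Among the other naive network genes Tfcp2l1 rose (0.96) while Dppa2 (-1.16) and Dppa4 (-0.997) fell. Of genes shared by naive and primed pluripotency Utf1 (-3.09), Lin28a (-1.94) and L1td1 (-1.003, adjusted p = 0.0493) fell and none rose, and of the 12 formative and primed genes Dnmt3a (-0.86) and Dnmt3b (-2.05) fell and none rose. Of all genes tested 4.61 percent fell. Without any 1 of the 4 early libraries 1 network gene was called as lower in place of 2, and 2 were called as higher in place of 1 without AICAR or metformin+LIF of Oct4GIP or AICAR of 129/MSM at passage 10. Without metformin+LIF 4 formative and primed genes were called as lower in place of 2. The count of 1753 genes called was 939 without AICAR at passage 2, 965 without AICAR+LIF at passage 2 and 1087 without AICAR at passage 3. Feeder markers summed to 88.2 and 95.8 CPM in the passage-2 libraries and to no more than 19.2 in the later ones, and their part in these changes was not tested.

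In the whole cultures before expansion the members went separate ways. Against the primed libraries Gbx2 rose, Sall4, Tfap2c and Fbxo15 fell, and Tbx3 and Zfp57 did not pass, while Prdm14 (3 counts in 8 cultures, 1 in primed) and Nr0b1 (0 and 2) were at or under the floor in both groups. In this comparison 37.5 percent of genes were called, 18.1 percent as higher and 19.4 percent as lower (7032 genes, and 4115 without primed Oct4GIP). Gbx2 had 13.0, 49.4, 0.947 and 1.98 CPM at day 8 and 16.6, 8.42, 3.43 and 7.15 at day 16, in the order Basal, 2iL, AICAR, AICAR+LIF. Its level in both Basal cultures lay within the range of the 11 expanded libraries (10.9 to 28.3 CPM). In the 2iL cultures Gbx2 lay above that range at day 8 and below it at day 16. Over primed, the ratio of counts was 28.5 (9.65 to 139) and the log2 fold change 4.54 (SE 1.11, adjusted p = 0.00334), 5.17 without primed Oct4GIP and 3.77 without 2iL at day 8. The call was lost with Oct4GIP libraries alone (4.01, adjusted p = 0.0579, in a range of 0.00013 to 0.0579 over its alternatives).

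Sall4 fell by 4.58 on the log2 scale (SE 0.57, adjusted p = 7.09e-06), from 85.7 and 385 CPM in the primed libraries to 33.6 to 36.9 in the AICAR cultures of day 8, 7.49 to 13.5 in 4 other cultures and 0 to 0.188 in Basal and 2iL at day 16. Without primed Oct4GIP its log2 fold change was -5.30, and without primed 129/MSM -3.17. Tfap2c fell by 2.34 (SE 0.62, adjusted p = 0.00574), with 33 counts in the 8 cultures and 47 in the 2 primed libraries. Its groups overlap: AICAR+LIF at day 8 had 13.8 CPM (7 counts, 5.57 to 28.5), above both primed libraries (8.83 and 7.26), AICAR at day 8 had 6.63, and the other 6 cultures 0 to 2.90. Fbxo15 fell by 2.11 (SE 0.54, adjusted p = 0.0042), with 15 and 20 counts. Without primed Oct4GIP the call was lost for Tfap2c (-2.21) and for Fbxo15 (-0.29), which fell by 3.00 without primed 129/MSM. Tbx3 had 21 counts in all 8 cultures (mean 0.991 CPM). Without primed 129/MSM the primed group holds 0 Tbx3 counts, so the fitted 4.40 is no fold. The cultures are not above a floor of 3 counts in primed Oct4GIP (1.10 CPM). With both primed libraries the log2 fold change of Tbx3 was -1.53 (adjusted p = 0.0781). It was -2.45 without primed Oct4GIP and -1.79 without AICAR+LIF at day 16, with calls in both, and with DESeq2 (-1.50). Its adjusted p ran from 0.00202 to 0.947 over its alternatives. Nr0b1, at 0 in all 8 cultures, was at least 582-fold higher in the 11 expanded libraries than the floor of 3 counts over the cultures. Prdm14 was higher there by a ratio of 331 (113 to 1609) and Tbx3 by 190.1 (124 to 307).

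The cultures also differ from the other libraries in their markers. Feeder markers, all 10 detected in each culture, summed to 2939 to 3392 CPM at day 8, and at day 16 to 5552 in Basal, 17212 in AICAR, 19209 in AICAR+LIF and 49873 in 2iL, where Col3a1 led with 17417. Neural markers summed to 3422 CPM in Basal and 1990 in 2iL at day 8, led by Tubb3, and to 453 to 1083 in the other 6 cultures, beside 356 in primed Oct4GIP. Against primed, 7 of 10 feeder and 4 of 5 neural markers rose, and Pou5f1 (-6.50) and Lin28a (-6.17) fell, as did Utf1 (0 counts in cultures, at least 1051-fold lower), while Sox2 rose (1.65). Of the 7 naive markers Klf4 rose (3.89), Tfcp2l1 (-2.31) and Nanog (-3.53) fell and 4 did not pass, and Zfp42, Esrrb or Nr5a2 was at 0 in each of the 8 cultures. Without primed Oct4GIP 1 naive marker was called as lower in place of 2, and without primed 129/MSM 2 as higher in place of 1. The members' relatives were mixed here too. Sall3 (4.17), Tfap2a (ratio of counts 134, 37.0 to 1107) and Gbx1 (1 count in primed, ratio 41.5, 7.34 to 1652) were among those that rose, and Sall1 (-1.44), Tbx1 (-3.38), Tbx4 (-2.23), Tbx20 (-2.06) and Prdm1 (-3.23) fell. Gbx2 is known in neural patterning, and the part of neural or feeder cells in the levels of Gbx2 and Zfp57 was not tested.

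**Figure D3:**
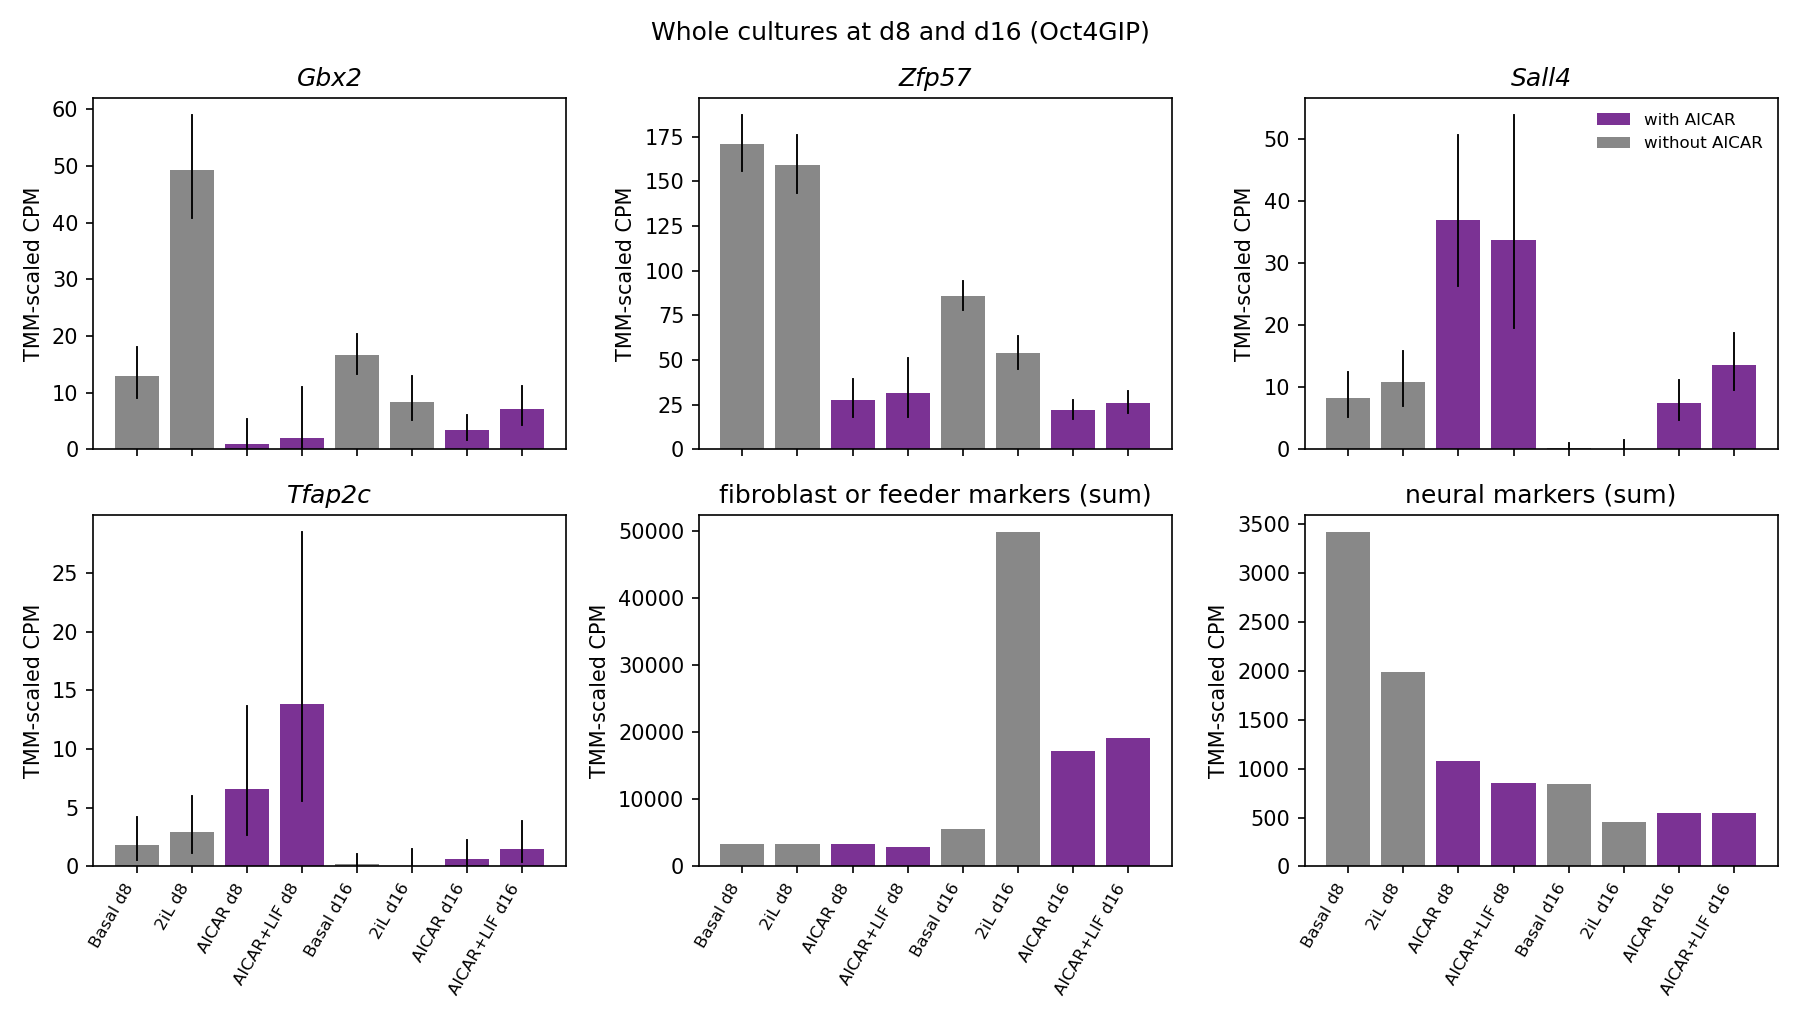
CPM of Gbx2, Zfp57, Sall4 and Tfap2c, and summed CPM of the feeder and neural markers, in the 8 whole cultures at day 8 and day 16, as bars from 0, with exact 95% counting intervals for the genes. Gbx2 and Zfp57 are lower and Sall4 is higher in the AICAR cultures of day 8 than in Basal and 2iL of that day.

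With AICAR, cultures had more Sall4 and less Zfp57. Sall4 had 36.9 (AICAR) and 33.6 CPM (AICAR+LIF) at day 8 beside 8.33 (Basal) and 10.8 (2iL), and 7.49 and 13.5 beside 0.188 and 0 at day 16. Zfp57 had 27.5 and 31.6 CPM beside 171 and 159 at day 8, and 21.9 and 26.0 beside 85.7 and 53.7 at day 16. Within each day the AICAR cultures do not overlap the others for either gene. With the day as a term, Sall4 rose by 3.00 (SE 0.62, adjusted p = 0.0248) and Zfp57 fell by 1.94 (SE 0.23, adjusted p = 0.00571). These are 2 of the 3 members that passed the filter, and 9.6 percent of the 14026 genes tested were called. The filter used these same 8 libraries. Sall4 passed it with 1 and 0 counts in Basal and 2iL at day 16, and Gbx2 with 1 count in each AICAR culture of day 8. The 2 of 3 is therefore not weighed against the 9.6 percent. Gbx2, at -2.20 (SE 0.69, adjusted p = 0.0758), was lower in all 4 AICAR cultures than in the 4 others. It was called with DESeq2 (-2.43), without a filter (-2.22) and without 2iL at day 16 (-2.58), with adjusted p from 1.14e-06 to 0.481 over its alternatives.

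These calls rest on few libraries. Without the 2 libraries of lowest total (AICAR and AICAR+LIF at day 8) 0 genes were called by edgeR (3007 at an unadjusted p under 0.05; 756 with DESeq2 and 0 with limma), with Sall4 at 5.98 and Zfp57 at -1.57. Without the day term Sall4 (2.32) and Zfp57 (-2.08) were both lost. The Sall4 call was also lost without Basal (3.14), AICAR (3.43) or AICAR+LIF (3.38) at day 8, or AICAR+LIF at day 16 (2.77), and its adjusted p ran from 7.61e-11 to 0.34 over its alternatives (Zfp57: 1.18e-13 to 0.0899). The 1347 genes called became 394, 613, 245 and 442 without Basal, 2iL, AICAR and AICAR+LIF at day 8, and 736, 2654, 638 and 415 without the same at day 16. Of 6 shared pluripotency genes tested, Pou5f1 (4.17) and Lin28a (2.76) rose with Sall4 and 4 did not pass, Sox2 (-0.72) among them. Of 7 naive network genes tested, Nanog (3.28) rose and 6 did not pass, with Stat3 (-0.65), Socs3 (-1.07) and Tet2 (-0.66) below 0. Of 9 formative and primed genes tested, Dnmt3b (1.25), Eomes (2.70) and T (2.78) rose and 6 did not pass. Of these, Pou3f1 (-0.22), Dnmt3a (-0.22), Zic2 (-0.35) and Cdh2 (-0.34) were below 0. The 3 formative and primed genes called became 0 without AICAR or AICAR+LIF at day 8 or AICAR+LIF at day 16, and 1 without Basal at either day. The 2 shared genes called became 1 without any 1 of the 4 cultures of day 8, and the 1 naive network gene called (Nanog) became 0 without any 1 of these, or without Basal or AICAR+LIF at day 16. Markers of other cell types were mixed. The keratin genes Krt5 (5.37) and Krt7 (2.94) rose and Tfap2a fell (-1.09). Of 9 feeder markers tested, Postn (1.81) was called as higher and 8 did not pass. Of these, Prrx1 (1.71, adjusted p = 0.06) and Fbn1 (1.10, adjusted p = 0.108) were above 0, and Col3a1 (-1.17), Lum (-0.75), Col1a1 (-0.59), Thy1 (-0.57), Col1a2 (-0.36) and Dcn (-0.08) below (median of the 9, -0.36). Without 2iL at day 16, 3 feeder markers were called as higher, and without Basal at day 16, 1 as lower. Neural markers at day 8 summed to 1083 and 854 CPM with AICAR and 3422 and 1990 without, and 0 of 5 passed the test (1 was called as lower without 2iL at day 16). Their part in the lower Zfp57 was not tested.

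Whether LIF had been given with AICAR made no difference past the test after expansion. Over 4 pairs matched for line and passage, 0 percent of 12940 genes were called by edgeR (310 at an unadjusted p under 0.05; 0 with DESeq2, 0 with limma and 68 without a filter), and 0 of the 8 members. Prdm14 was lower with LIF in 4 of 4 pairs, by -0.02 to -0.91 on the log2 scale, with a log2 fold change of -0.31 (95% interval -0.65 to 0.04). Nr0b1 varied between pairs, at 137 CPM with LIF and 62.8 without at passage 3 but 89.4 and 126 in 129/MSM. Its log2 fold change of 0.13 was -0.21 without either library of the passage-3 pair. The remaining 6 members lay between -0.25 (Gbx2) and 0.06 (Zfp57 and Fbxo15). Without AICAR or AICAR+LIF of Oct4GIP at passage 10, Tfap2c (-0.02) was at 0.0150 and 0.0141 and Zfp57 at -0.0195 and -0.0204, and without either 129/MSM library Tbx3 (-0.02) was at 0.12 and Fbxo15 at -0.01.

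The activator used likewise left no member past the test. For A769662 or metformin against AICAR in Oct4GIP at passage 10, with LIF as a term, 0 percent of 13574 genes were called by edgeR (466 at an unadjusted p under 0.05; 0 with DESeq2, 0 with limma and 86 without a filter). Gbx2 had 28.3 and 21.4 CPM after AICAR and AICAR+LIF, and 20.3, 13.6 and 13.1 after A769662, A769662+LIF and metformin+LIF. These ranges do not overlap, but the log2 fold change of -0.59 (95% interval -1.13 to -0.05) did not pass. Tfap2c ran from 76.9 CPM after A769662+LIF to 142 after A769662. The fit of these 5 libraries has 2 residual degrees of freedom.

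Between the lines, the levels of Tfap2c separated after expansion. At passage 10 it had 38.4 and 40.0 CPM in 129/MSM (AICAR, AICAR+LIF), and 124, 116, 142, 76.9 and 102 in Oct4GIP, in the order AICAR, AICAR+LIF, A769662, A769662 with LIF, and metformin+LIF. These ranges do not overlap, while the primed libraries were close (7.26 and 8.83 CPM). Prdm14 (100.1 and 85.4 CPM) and Zfp57 (463 and 424) were higher in both 129/MSM libraries than in the 5 of Oct4GIP (highest 70.9 and 359).

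In the planned fit of 3 matched states of each line, 0.116 percent of genes were called (15 of 12954 by edgeR, 1422 at an unadjusted p under 0.05, 220 with DESeq2 and 17 with limma) and 0 of the 8 members. Tfap2c had -1.27 (SE 0.31, adjusted p = 0.215), Prdm14 0.73 (SE 0.28, adjusted p = 0.42) and Zfp57 0.48 (SE 0.27). With passage-10 libraries alone, 1227 genes were called, Tfap2c at -1.50 (adjusted p = 0.00278, in a range of 0.000157 to 0.9 over its alternatives) and Prdm14 at 0.74 (0.0207, in a range of 0.0207 to 0.999) among them, and Tfap2c was also called without a filter (-1.26). In this fit, leaving out 1 library leaves the other of its state alone, so the lines are compared over the remaining 4. Leaving out either primed library is therefore the same comparison of the same 4 passage-10 libraries, not 2 separate ones. Both fits gave -1.60 for Tfap2c, 0.70 for Prdm14 and 0.81 for Zfp57, and Nr0b1 was at 0.65 without primed Oct4GIP. Fbxo15, at -0.36, was at 0.00176 and 0.0052 in those 2 fits. The 15 genes called became 1402 without primed Oct4GIP, 1323 without primed 129/MSM, 4 without AICAR and 43 without AICAR+LIF of Oct4GIP, and 3 and 24 without the same of 129/MSM. Line, sex and strain, and for the primed libraries also feeders and medium, cannot be told apart.

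**Figure D4:**
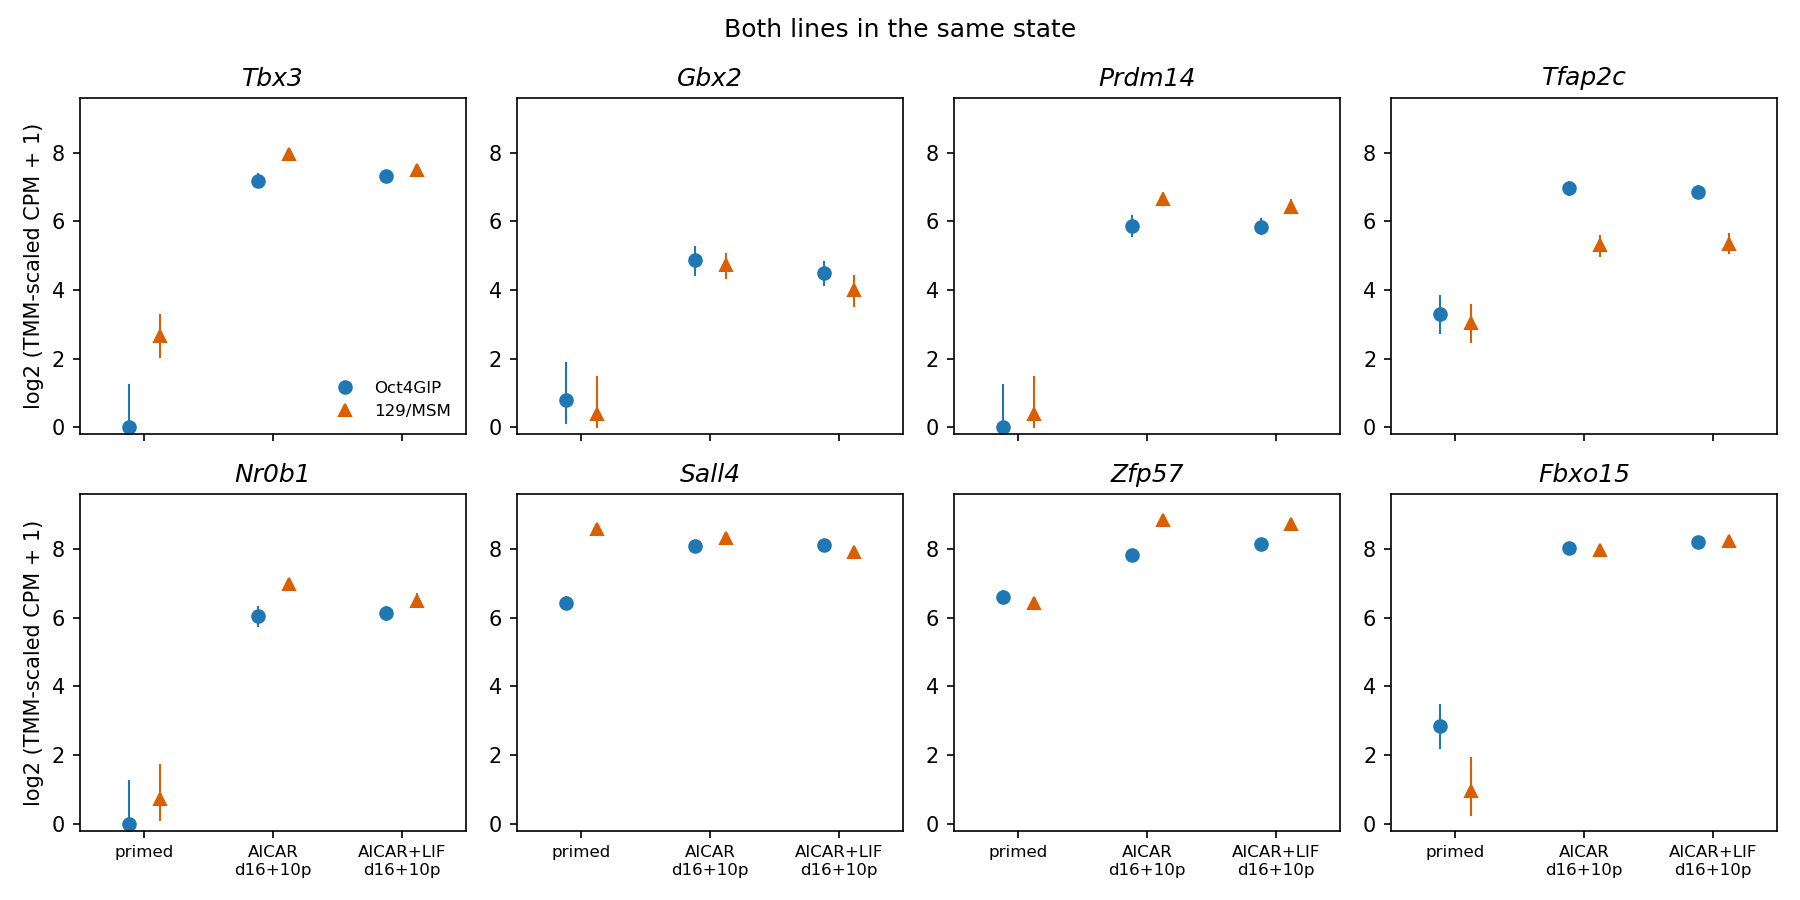
Levels of the members, as log2(CPM + 1), in 3 matched states (primed, AICAR at passage 10, AICAR+LIF at passage 10) of Oct4GIP and 129/MSM, 1 library per point with its exact 95% counting interval. Tfap2c is lower in 129/MSM than in Oct4GIP in both expanded states (38.4 and 40.0 against 124 and 116 CPM), and Sall4 is higher in primed 129/MSM (385) than in primed Oct4GIP (85.7).

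In the primed state itself the lines differed beyond counting error in 3 members, with 1 library each and so no measure of other spread. No share over all genes stands beside this count, so it is not a result about the members. Sall4 was 4.49 times as high in 129/MSM as in Oct4GIP (3.90 to 5.19), Fbxo15 0.152 times (0.0285 to 0.524), and Tbx3 at least 4.87-fold higher (17 counts against 0). Tfap2c (0.823, 0.444 to 1.52) and Zfp57 (0.878, 0.738 to 1.05) did not differ beyond counting error. The primed 129/MSM library also had more mesendoderm markers (413 CPM, led by Sox17 at 139.9, against 8.46 in Oct4GIP) and feeder markers (592 against 61.8). Their part in the Sall4 and Tbx3 levels was not tested. The change on reversion in 129/MSM less that in Oct4GIP, a comparison added after the values were seen, has 1 primed library per line, each assumed to vary like the other groups. It called 1.38 percent of 18739 genes and 1 member, Tbx3 (-6.53, SE 1.48). That call was lost with DESeq2, with limma and without AICAR+LIF of 129/MSM at passage 10 (-6.33). The 258 genes called became 137 and 126 without AICAR and AICAR+LIF of 129/MSM at passage 10.

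Across the 22 libraries, which share the step from primed or culture to expanded cells, the genes most like each member were found by Pearson's r of log2 CPM over 11729 genes. Tbx3 was most like Gpa33 (0.991), Tex19 (0.990) and Rpp25 (0.988), Prdm14 like Tex14 (0.988), Lrrc31 (0.987) and Accsl (0.987), and Tfap2c like Wee1 (0.975), Kat7 (0.975) and Mtf2 (0.973). Nr0b1 was most like Dppa5a (0.996), Acsbg3 (0.996) and Gm6798 (0.995), and Fbxo15 like Zfp980 (0.991), Gtsf1l (0.991) and Rex2 (0.991), where Gm6798, Zfp980 and Rex2 belong to families of near-identical copies that may share reads. Sall4 followed the proliferation gene Bub1 (0.976), then Dnajc2 (0.973) and Eif2s1 (0.972), and Zfp57 followed Slc17a9 (0.950), Usp48 (0.948) and Ppp6r3 (0.943). Gbx2 had the loosest neighbours, Zfp846 (0.904), Mtus2 (0.884) and Fry (0.873). Among the members themselves, Tbx3 and Nr0b1 were closest (0.987) and Gbx2 and Sall4 least alike (0.08). Within the 11 expanded libraries, which share the 2iL medium but not the line, Tbx3 and Zfp57 had r = 0.828 and Tfap2c and Zfp57 r = -0.768.

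The transcript table shows which annotated forms carry the counts. Prdm14 and Nr0b1 have 1 transcript each. The longest Sall4 transcript, Sall4-201, took 40.3 percent (34.3 to 46.7) of the 233 Sall4 counts in primed Oct4GIP, and 48.3 to 53.6 percent in the naive, primed 129/MSM and expanded libraries. For Gbx2, a transcript with a retained intron took 42.8 percent (37.8 to 47.9) of the counts at passage 10. Reads that fit several transcripts were placed by the aligner, so these shares describe the deposited table and not isoform use.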

How the data were processed

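The files hold read counts that the authors deposited for each gene and each transcript of 22 mouse libraries, made from polyA RNA, aligned with Bowtie2 2.2.5 to Ensembl cDNA and ncRNA (GRCm38) and summed per gene. The deposited count columns are whole numbers; gene and transcript totals were equal in 22 of 22 libraries. Gene positions came from GENCODE M21, which has 98.2 percent of the genes, and promoters from RefSeq (GRCm38.p6). The members are the genes whose symbol equals the name.

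Counts were scaled by TMM factors (0.880 to 1.15) to CPM (counts per 1000000 counts) and tested with edgeR 4.0.16 (quasi-likelihood, filterByExpr by group, Benjamini-Hochberg over all genes tested, threshold 0.05) in R 4.3.3. One fit of all 22 libraries in 6 groups gave the comparisons of passage 10 with primed, of passage 10 with passages 2 and 3, and of cultures with primed. Smaller fits compared AICAR with none in cultures (8 libraries, day as a term), LIF in 4 pairs (8), the lines in 3 matched states (6) and the activators at passage 10 (5, LIF as a term). The change on reversion between lines was added after the values were seen. No condition has a replicate library, so p-values measure the spread within groups of differing activators, passages and lines, and a group of 1 library (after an omission, with Oct4GIP alone, or the primed library of each line in the change on reversion) is assumed to vary like the others. Alternatives were no scaling factors, DESeq2 1.42.0, limma 3.58.1 (voom), no filter, a filter of 10 counts per library, other sets of samples, other terms, and leaving out each library. Intervals of ratios are exact 95% counting intervals over summed counts, and a sum of 0 was set to 3 counts over the group for a lower bound. Both cover counting error only, and the bound leaves out the counting error of the other sum. Python 3.11.15, numpy 2.4.6, pandas 2.3.3, scipy 1.17.1 and matplotlib 3.10.9 were used for levels and plots.

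Named by rule were the members, the 4 genes of highest mean CPM in each list and the 3 genes most like each member by Pearson's r of log2 CPM (prior count 2), among genes averaging 10 CPM or more. Genes named outside this rule, such as those of short counts, were chosen after their values were seen. The members and lists were chosen with earlier results of these data known.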

Additional observations from a re-analysis of the deposited data

Results flagged for a closer look

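Tbx3 passed a test of the difference between the lines in its change on reversion: the fitted log2 change in 129/MSM less that in Oct4GIP was -6.53 (SE 1.48, adjusted p = 0.0305) by a test that was added after the values were seen. The primed state of each line is 1 library, so the spread comes from the other groups and a difference between lines cannot be told apart from one between single libraries. Tbx3 had 0 counts in primed Oct4GIP and 17 in primed 129/MSM, so the fitted size depends on the prior count and is no bound. The adjusted p ran from 0.0222 to 0.0795 over its alternatives, and the call was lost with DESeq2 (-5.91), with limma (-4.57) and without AICAR+LIF of 129/MSM at passage 10 (-6.33). In 27 groups of 4 to 7 libraries examined for a library far from the others, 0 were found.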

How the results depend on the processing

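Of 351 alternatives in processing for the members' fold changes, 331 kept the direction and the side of the threshold, 10 lost and 6 gained a call, and 4 changed direction. Of 452 that left out 1 library, 411 kept both, 9 lost and 10 gained a call, and 22 changed direction. The causes were not tested, apart from filters and omissions that leave fewer genes or libraries by construction.

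When every library had to hold 10 counts or more, the genes called were 2880 (passage 10 against primed), 856 (passage 10 against passages 2 and 3), 3477 (cultures against primed), 792 (AICAR in cultures) and 4 (lines). Without a filter they were 3143 (AICAR), 68 (LIF), 929 (lines) and 86 (activators), with DESeq2 2140 (AICAR), 220 (lines) and 721 (change on reversion between lines), and with only the groups compared 3002 (passages) and 4595 (cultures). For AICAR in cultures they were 0 without the 2 lowest totals (756 with DESeq2 and 0 with limma, both added after seeing the data) and 37 without the day term, and for the lines 1227 with passage-10 libraries alone. Leaving out 1 library gave 4462 to 6766 for passage 10 against primed (lowest without primed Oct4GIP), 939 to 1847 for passages (lowest without AICAR at passage 2), 4115 to 7260 for cultures (lowest without primed Oct4GIP), 245 to 2654 for AICAR (without AICAR at day 8, without 2iL at day 16), 3 to 1402 for lines (without AICAR of 129/MSM at passage 10, without primed Oct4GIP), 126 to 258 for the change on reversion between lines (lowest without AICAR+LIF of 129/MSM at passage 10), and 0 for LIF and for activators.

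Log2 fold changes that changed direction with a setting were Gbx2 between lines (0.0926 with passage-10 libraries alone) and Prdm14 between activators (0.00712 without a filter). Tbx3 in cultures against primed did so with limma (0.0925). With Oct4GIP libraries alone its fit gave 4.39, counted above as a change of direction. The primed group there holds 0 Tbx3 counts, so 4.39 is no fold and shows no direction. Log2 fold changes whose fitted sign changed when 1 library was left out ranged from -0.47 to 1.69 (Sall4, passage 10 against primed) and -0.22 to 0.20 (Nr0b1, passages). For Tbx3 in cultures against primed they ranged from -2.45 to 4.40, where 4.40 was fitted over 0 primed counts and is no fold. For Fbxo15 between lines they ranged from -0.77 to 0.0052. For LIF they ranged from -0.21 to 0.36 (Nr0b1), -0.0462 to 0.0150 (Tfap2c), -0.0204 to 0.12 (Zfp57), -0.12 to 0.12 (Tbx3) and -0.0143 to 0.16 (Fbxo15), and for activators from -0.0619 to 0.17 (Sall4), -0.22 to 0.28 (Prdm14) and -0.35 to 0.19 (Tfap2c). Depth limits most the day-8 AICAR libraries, where 3 counts are up to 5.93 CPM. With 1 library per condition and 2 primed libraries of different lines, the folds over primed carry the difference between the lines, and no fold is given for Prdm14 and Nr0b1 in cultures against primed.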
